A study of Mus musculus with 2 samples.

Results

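The mir-379 to mir-410 cluster is the distal run of microRNA genes in the imprinted Dlk1-Dio3 domain on mouse chromosome 12. Its members were taken by position alone, as every gene of the deposited tables that GENCODE M21 places wholly within a 60 kb window of chromosome 12 on GRCm38. Its first member starts at 109709060 and its last ends at 109747960. This gave 38 of the 1973 genes in the tables. MicroRNA-sized RNA had been sequenced from the heart of B6NCrl mouse embryos at 12.5 days, males and females pooled, in 2 biological replicates with 1 library each. The labels give no treatment or mutation and 1 source record for both libraries, and they do not say how many embryos went into a pool. There was 1 group, so the design holds no contrast between conditions and no test was made between groups. Whole heart holds muscle, vessel, mesenchymal and blood cells together, so more cells of a type and more RNA per cell cannot be told apart.

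In this domain the microRNAs are made from the maternal chromosome, as part of a long run of non-coding transcripts that includes Meg3, Rian and Mirg. The paternal chromosome instead expresses protein-coding genes such as Dlk1 and Rtl1. The distal cluster is found in placental mammals, is best known from brain and from embryonic tissues, and arose by repeated copying of hairpins, so that many members resemble one another. A microRNA finds its target messages mainly through its seed, bases 2 to 8 of the mature strand, and a hairpin can give a mature strand from its 5p arm, its 3p arm or both. The deposited tables count reads per hairpin gene and do not separate the arms.

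For 4 microRNAs the tables hold a gene on the opposite strand of the same place. Mir409 was therefore read as the antisense counts of Gm24321, Mir376a as those of Gm25252, Mir299a as those of Mir299b and Mir380 as those of Gm25750. The sense counts of these 4 genes were 0 in both libraries except at Mir299b, with 7 and 10. The other 34 members were read on their own strand, where all 34 are annotated on the plus strand.

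RefSeq on GRCm38.p6 gave 69 mature strands for 37 members, with 64 different seeds. The strands miR-376c-3p, miR-485-5p, miR-487b-3p and miR-539-3p were not analysed here, so more seeds may be shared than are counted. Among the 69 strands, 5 seeds were shared by members, each by 2 of them, and 9 members belonged to these groups. None of the 5 was found on a mature strand from elsewhere among the 1679 mouse strands in that table. The shared seeds are shown in capitals, 5′ to 3′, because they define which members can address the same messages.
miR-379-3p: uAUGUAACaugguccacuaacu
miR-411-3p: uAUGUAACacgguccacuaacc
miR-379-5p: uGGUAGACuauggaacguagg
miR-1193-5p: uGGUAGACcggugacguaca
miR-494-5p: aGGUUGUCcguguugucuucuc
miR-410-5p: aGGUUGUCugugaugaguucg
miR-496a-5p: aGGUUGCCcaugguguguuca
miR-453: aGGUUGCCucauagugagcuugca
miR-758-5p: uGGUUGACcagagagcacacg
miR-1197-5p: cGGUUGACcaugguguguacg

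Further strands of abundant members, and of Mir300 because its 3p strand resembles that of Mir381, are given with the seed in capitals. Among the 69 strands, each of these seeds was found in 1 member. They are shown so that each can be set beside the level of its hairpin below. That level does not separate the arms, so it is not the level of the strand.
miR-487b-5p: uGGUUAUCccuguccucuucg
miR-411-5p: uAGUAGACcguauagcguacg
miR-369-5p: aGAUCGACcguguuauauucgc
miR-369-3p: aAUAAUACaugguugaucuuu
miR-409-5p: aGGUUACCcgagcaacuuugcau
miR-409-3p: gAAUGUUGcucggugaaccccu
miR-381-3p: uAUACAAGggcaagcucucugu
miR-300-3p: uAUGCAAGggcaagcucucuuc
miR-541-5p: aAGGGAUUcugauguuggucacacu
miR-382-5p: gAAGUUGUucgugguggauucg
miR-376a-3p: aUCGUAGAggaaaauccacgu

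The distal cluster held 189262 of 4478599 sense gene counts in replicate 1 and 212696 of 5279908 in replicate 2. That was 4.23% and 4.03%, or 4.13% ± 0.140 (SD, n = 2). Levels below are CPM, the counts of a gene per 1000000 sense gene counts of its library, and n is 2 throughout. Intervals and limits cover counting error only and treat reads as independent. Nothing says that molecular identifiers were used, so the intervals and limits may be too narrow. Members are compared by their counts, and how evenly their sequences were captured was not tested.

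Most members were detected, over a range of levels that ran from 0.714 to 7466 CPM. Of the 38 members, 36 had counts in both libraries and 33 (86.8%) reached 10 CPM in both, against 14.6% of all 1973 genes. At 1000 CPM in both stood 10 members (26.3%), against 4.05% of all genes. The median over the 36 detected members was 238 CPM.

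Mir487b, one of the microRNAs of this locus whose inhibition increased vessel growth in a mouse model of limb ischaemia, was the highest by its mean. The libraries gave 36014 and 36383 counts, which are 8041 and 6891 CPM, a mean of 7466 ± 814 CPM. Mir411 followed with 29092 and 36676 counts, or 6496 and 6946 CPM, a mean of 6721 ± 319 CPM. Mir487b lay above Mir411 in replicate 1 and slightly below it in replicate 2, so the order of these 2 did not hold between libraries. In the ranking of all genes, by the same counts, they stood at places 24 and 26.

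Mir369, whose 3p strand is known for binding the tumour necrosis factor message, came next at 4976 and 4451 CPM (4713 ± 372 CPM). Mir409, read opposite Gm24321, had 4202 and 4310 CPM (4256 ± 76.6 CPM). Mir369 lay above Mir409 in both libraries, by ratios of 1.18 and 1.03. Mir379, the first hairpin of the cluster and next in level, stood at 3041 and 2792 CPM (2917 ± 176 CPM).

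Mir381 had 2299 and 2184 CPM, Mir541 had 1925 and 2384 CPM, and Mir382 had 1949 and 1655 CPM. These 3 overlapped, since Mir541, which has been linked to growth of heart muscle cells, was the lowest of them in replicate 1 and the highest in replicate 2. Mir376a, whose precursor is known to be edited by ADAR enzymes in brain, had 1621 and 1503 CPM. Edited reads differ from the genome, and how such reads were aligned is not given in the sources used here.

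Mir299a had 1276 and 1125 CPM, Mir380 1023 and 998 CPM and Mir1193 914 and 816 CPM, so their order was the same in both libraries. Of the cluster's counts, the 5 highest members took 63.2% ± 0.202, the first 10 took 84.9% ± 0.159 and the first 12 took 89.4% ± 0.101. The 4 microRNAs read on the opposite strand took 19.5% ± 0.342 of them.

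**Figure D1:**
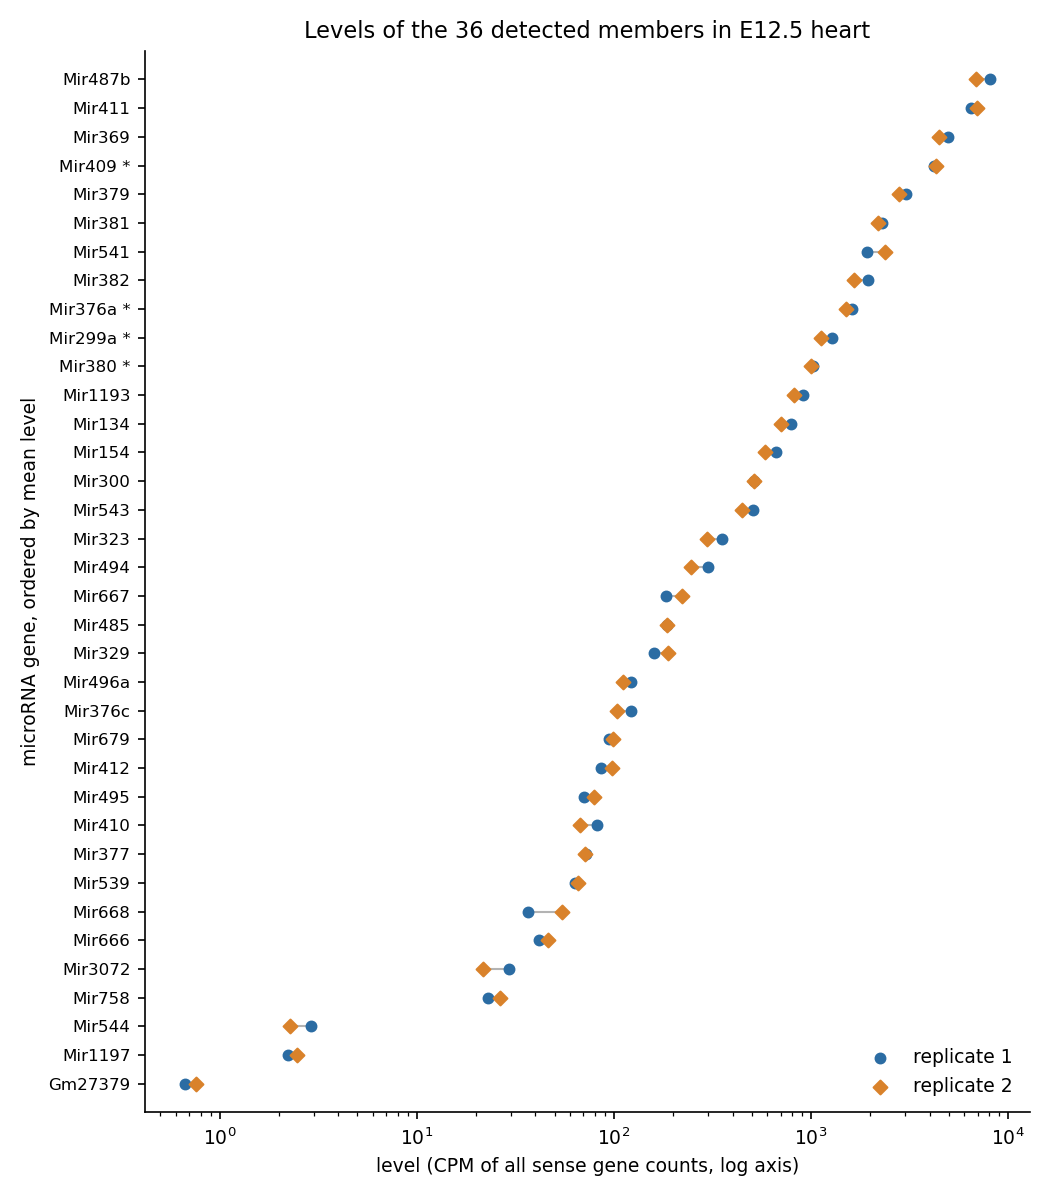
Level of each detected member in CPM (log axis), with replicate 1 as circles and replicate 2 as diamonds joined by a line, and microRNAs read on the opposite strand marked with an asterisk. The 36 members run from 0.714 CPM for Gm27379 to 7466 CPM for Mir487b, and the 2 libraries lie close together beside that range.

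Several members that are often studied in heart or vessel stood low or in the middle. Mir410 and Mir495, which promoted division of heart muscle cells in culture and repress Cited2, had 81.7 and 67.2 CPM and 70.6 and 79.0 CPM. Mir410 was the higher of the 2 in replicate 1 and the lower in replicate 2. Mir494 and Mir329, which belong with Mir487b and Mir495 to the vessel-growth set named above, had 300 and 247 CPM and 160 and 187 CPM. Within that set Mir487b thus stood far above the other 3 in both libraries.

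Members known from neurons were also present. Mir134, which limits the size of dendritic spines, had 790 and 700.01 CPM, and Mir485, which acts at synapses, had 185 and 186 CPM. Mir154, induced by TGF-beta in lung fibroblasts, had 660 and 586 CPM. All 3 were above 100 CPM in both libraries, as were 23 of the 38 members, against 9.12% of all genes.

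At the low end, Mir544 had 13 and 12 counts, Mir1197 had 10 and 13, and Gm27379 had 3 and 4. Mir654 and Mir453 had 0 counts in both libraries, which leaves room for at most 0.670 and 0.568 CPM. The detected members not given with values here lay between Mir758 at 24.7 ± 2.35 CPM and Mir300 at 511 ± 0.681 CPM. Over the whole ranking, 11 of 37 neighbouring places changed order between the libraries.

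**Figure D2:**
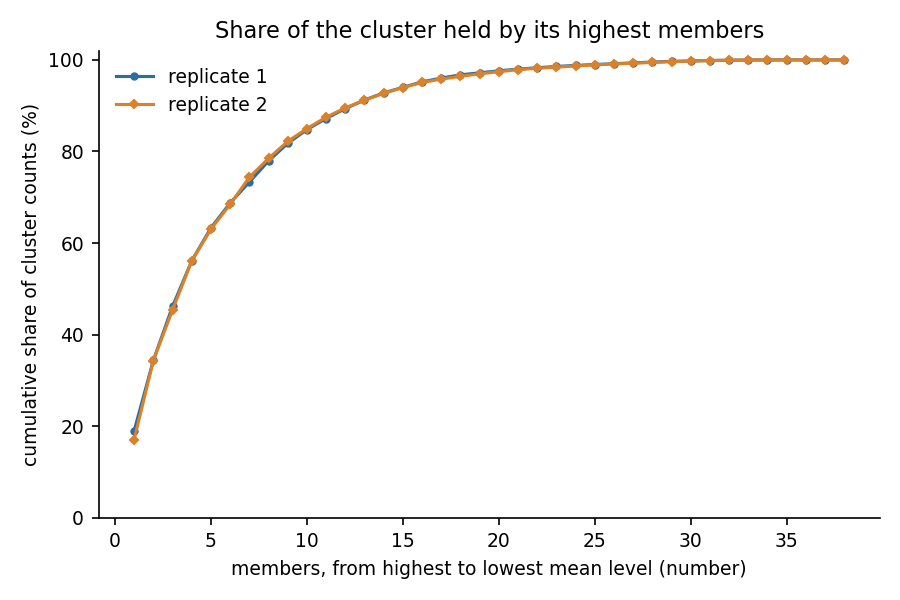
Cumulative share of the cluster's counts (%) against the number of members, added from the highest to the lowest mean level, for replicate 1 (circles) and replicate 2 (diamonds). The curves reach 63.2% at 5 members and 89.4% at 12, and nearly coincide.

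Along the chromosome, high and low members were interspersed, with some runs of high members, such as Mir379, Mir411, Mir299a and Mir380. Whether levels alternate along the whole cluster was not tested. From Mir379, at 109709060 to 109709125, to Mir3072, at 109747878 to 109747960, the members span 38.9 kb, with a median gap of 0.591 kb between neighbours. Mir379 at the start had 2917 CPM and Mir3072 at the end had 29.3 and 21.6 CPM. Level and distance from Mir379 had a Spearman rho of −0.10 over the 36 detected members, which share libraries and lie on 1 chromosome, so that there was no steady rise or fall along the cluster. Neighbouring detected members differed by a median of 5.60-fold in mean CPM, and 14 of 35 neighbouring pairs differed by more than 10-fold.

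In the last dense group high and low members followed each other in turn. Mir409 (109743158 to 109743236), Mir412 (109743289 to 109743368), Mir369 (109743418 to 109743496) and Mir410 (109743715 to 109743795) follow each other in this order. Mir409 and Mir369 had means of 4256 and 4713 CPM, while Mir412 between them had 86.0 and 97.7 CPM and Mir410 behind them 81.7 and 67.2 CPM. Within a library, Mir369 exceeded Mir412 by a ratio of 51.7 ± 8.73 and Mir410 by 63.5 ± 3.75, and Mir409 exceeded Mir412 by 46.5 ± 3.38. Each ratio was several times larger than its SD over the libraries, but that SD holds no error common to both. Unequal capture of different sequences would be such an error and was not tested. These are therefore ratios of counts, which may differ from ratios of RNA amount.

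Similar steps lay elsewhere. Mir487b (109727333 to 109727414) exceeded its neighbour Mir539 (109728129 to 109728202), at 63.6 and 65.5 CPM, by a ratio of 116 ± 15.0. Mir376a exceeded Mir376c by 13.8 ± 0.855, and Mir1193 exceeded the adjacent Mir679 by 8.99 ± 1.04. Mir541 exceeded Mir377, the detected member before it, by 30.04 ± 4.73. Other neighbours were close, such as Mir299a and Mir380 with a ratio of 1.19 ± 0.0848 and Mir411 and Mir379 with 2.31 ± 0.249.

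**Figure D3:**
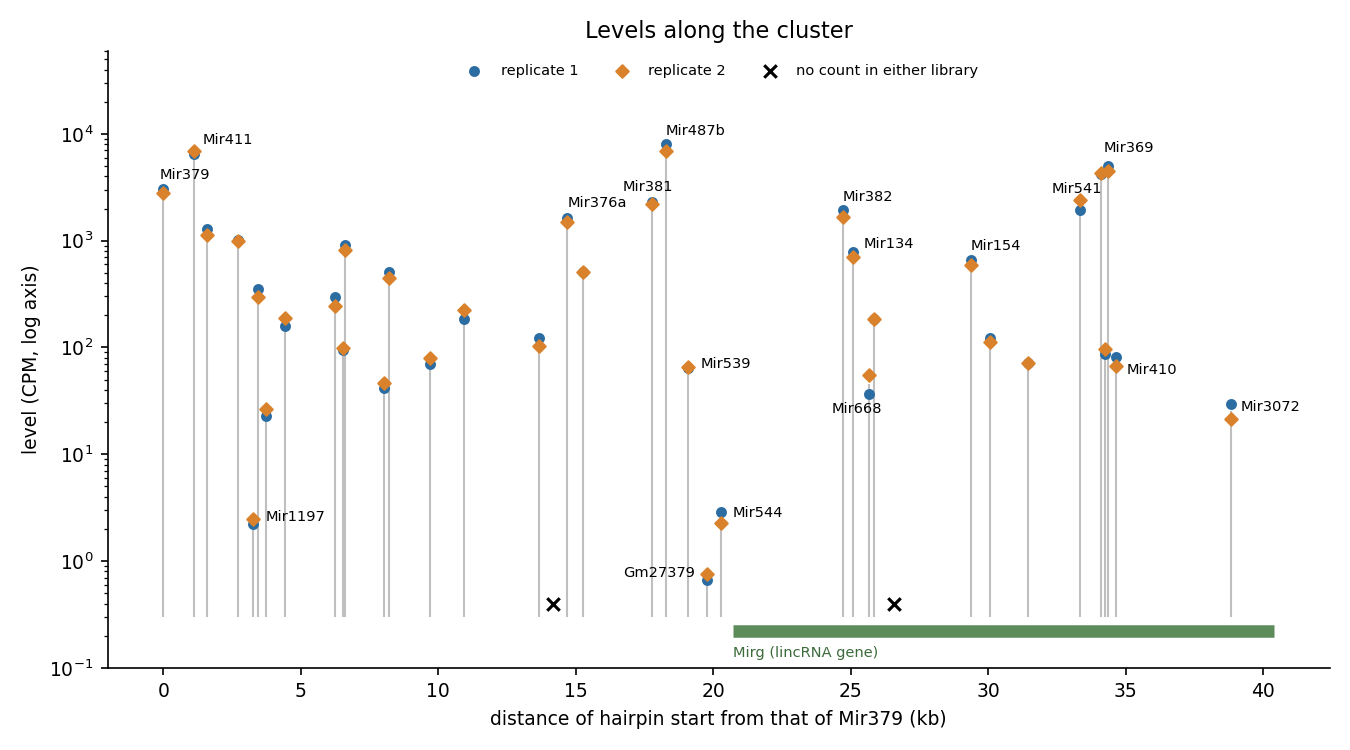
Level in CPM (log axis) against the distance of each hairpin's start from that of Mir379 in kb, with replicate 1 as circles, replicate 2 as diamonds, crosses for the 2 members without a count and a green bar for the lincRNA gene Mirg. High members stand at the start (Mir379, Mir411), in the middle (Mir381, Mir487b) and near the end (Mir541, Mir409, Mir369), with low members between them.

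GENCODE M21 places 14 of the members within Mirg, a lincRNA gene on the plus strand from 109729764 to 109749460, and 24 before it. Of the 14, 9 overlap an exon of at least 1 Mirg transcript and 5 overlap none. Members before Mirg took 63.9% ± 0.506 of the cluster's counts, those on a Mirg exon 18.8% ± 0.909 and those on no exon 17.3% ± 1.42. At 10 CPM in both libraries stood 20 of the 24 members before Mirg, 9 of 9 on an exon and 4 of the 5 others, so detected members were found at all 3 kinds of place. The medians of the detected members were 273 CPM (n = 23), 91.8 CPM (n = 9) and 1389 CPM (n = 4), and the ranges of the 3 sets overlapped.

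Hairpins of the cluster share short stretches of sequence. A search of the GENCODE M21 hairpin sequences, on the transcribed strand only, found that the most frequent 7-base word, UUCGCUU, was in 10 of 38 member hairpins (26.3%) and in 0.590% of all 2202 hairpins. The most frequent 6-base word, UACUUG, was also in 10 member hairpins (26.3%), against 2.32% of all. CGCUUUA, which can overlap UUCGCUU by 5 bases, was in 7 member hairpins (18.4%) and in 7 of the 2202 (0.318%), so each of its matches was a member. The words were taken from the members after their sequences were read, so these shares are descriptions and not tests. Hairpins of 5 members, with the first 2 words in capitals, show that members with the same words stood at different levels.
Mir411: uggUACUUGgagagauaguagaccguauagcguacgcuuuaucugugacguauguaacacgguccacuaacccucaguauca
Mir487b: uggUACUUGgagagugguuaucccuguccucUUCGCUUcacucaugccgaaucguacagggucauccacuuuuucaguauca
Mir539: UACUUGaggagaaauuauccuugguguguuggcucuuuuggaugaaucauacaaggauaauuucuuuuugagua
Mir369: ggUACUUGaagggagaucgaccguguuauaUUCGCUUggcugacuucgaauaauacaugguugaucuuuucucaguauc
Mir410: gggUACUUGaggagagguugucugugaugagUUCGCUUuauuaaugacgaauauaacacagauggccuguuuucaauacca

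Both words occur in Mir487b and Mir369, among the 3 highest members, and in Mir410, at under 100 CPM. Mir382 and Mir323, with means of 1802 and 323 CPM, also hold both. The 10 detected members with UUCGCUU had a median of 399 CPM, with a range of 71.8 to 7466 CPM. The 26 without it had a median of 194 CPM and ranged from 0.714 to 6721 CPM, so the sets overlapped widely. For UACUUG the medians were 511 CPM with it (9 detected members) and 174 CPM without it (27), and the ranges again overlapped. Member hairpins were 61 to 123 bases long, with a median GC content of 44.4% against 50.8% for all hairpins.

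No gene's count includes reads with more than 1 possible place, which were 27.1% and 25.3% of all reads. The strands listed earlier as not analysed, among them strands of Mir487b and Mir376c, had no sequence and were not searched for in other hairpins. Nor was any strand of Gm27379. Within the cluster, no complete mature strand with a sequence lay in another annotated hairpin except at the place where Mir299a and Mir299b overlap on opposite strands. There the strands of miR-299b lie whole within the Mir299a hairpin, so shortened reads of Mir299a can fit both strands and its level is uncertain. Apart from that place, the longest stretches shared between hairpins were 31 bases for Mir376c and Mir376b, 21 for Mir411 and Mir758 and 20 for Mir487b and Mir376b. Mir376b was not analysed here. The levels of Mir376c, Mir411, Mir758 and Mir487b may thus leave out reads from those stretches, which was not tested.

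Grouped by the shared seeds shown first, the hairpins were unevenly represented in the counts. Mir411 and Mir379, whose 3p strands share AUGUAAC, together held 22.6% and 24.2% of the cluster's counts (23.4% ± 1.14). Mir379 and Mir1193, whose 5p strands share GGUAGAC, held 9.16% ± 0.286, with Mir379 above Mir1193 by a ratio of 3.37 ± 0.0692. The GGUUGUC group of Mir494 and Mir410 held 0.841% ± 0.0873, the GGUUGCC group of Mir496a and Mir453 0.282% ± 0.00743 and the GGUUGAC group of Mir758 and Mir1197 0.0656% ± 0.00831. Mir379 is in 2 groups, so the shares do not add up. They are of hairpin counts, which hold both arms and leave out reads with more than 1 possible place. The share of the strand that carries the seed may therefore differ and was not measured.

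Of the 64 seeds, 10 were also on a mature strand from outside the window. The most abundant member among them was Mir411, whose 5p strand shares AGUAGAC with miR-7229-5p. Others were ACACACC, shared by miR-329-3p and miR-362-3p, AACAAAC, shared by miR-495-3p, miR-1192 and miR-12200-5p, and AUAUAAC, shared by miR-410-3p, miR-344d-3p and miR-344e-3p. Mir329, Mir495 and Mir410 were not among the 12 highest members. A further one, AGGUCAC, joined miR-1193-3p to miR-370-5p of the proximal part of the same domain.

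Between the 2 libraries the members matched about as closely as all genes did, by the median absolute log2 ratio given below. Of the 35 members with at least 10 counts in total, 0 differed by 1.5-fold, against 10.1% of all 447 genes with that many counts, and 0 by 2-fold, against 1.57%. Among genes with 100 or more counts in total, which 33 of the 35 members have, 4.14% differed by 1.5-fold. With TMM scaling 1 member passed 1.5-fold, Mir668. The median log2 ratio of replicate 2 over replicate 1, on the log2(CPM + 1) scale, was −0.07 for the members and −0.01 for all 447, and the median absolute log2 ratio was 0.17 for both. Of the 35, 14 (40.0%) were higher and 21 lower in replicate 2, against 49.4% of the 447 higher. Each side is 1 library, so these are descriptions without a test.

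Mir668 differed most, with 164 and 289 counts, or 36.6 and 54.7 CPM, which is a log2 ratio of 0.57 and a ratio of 1.49 (95% interval from the counts 1.23 to 1.82). Mir3072 had the lowest log2 ratio, with 131 and 114 counts, a value of −0.42 (ratio 0.738, interval 0.569 to 0.956). Among the abundant members Mir541 differed most, with 8623 and 12589 counts and a log2 ratio of 0.31 (ratio 1.24, interval 1.20 to 1.27). Its share of the cluster was 4.56% and 5.92%, while Mir487b, with a log2 ratio of −0.22, fell from 19.03% to 17.1%. These intervals exclude 1 but hold counting error alone, and the spread between hearts is not part of them.

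**Figure D4:**
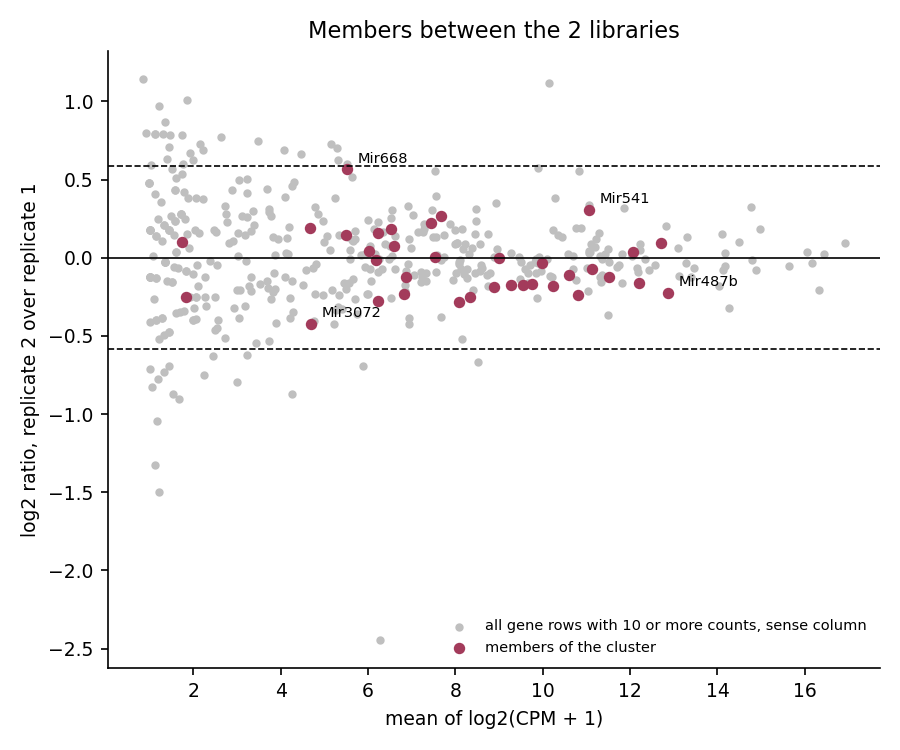
Log2 ratio of replicate 2 over replicate 1 against the mean of log2(CPM + 1), for members of the cluster (red) and all genes with 10 or more counts (grey, sense column), with dashed lines at 1.5-fold. The members lie between −0.42 for Mir3072 and 0.57 for Mir668, inside the dashed lines.

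The proximal microRNAs of the same domain, around Rtl1, are the nearest comparison. The tables hold 20 genes in the 250 kb before the distal window, all read in the sense column, which together took 1.61% ± 0.0441 of the sense counts. The distal cluster's counts were 2.58 and 2.56 times theirs (2.57 ± 0.0165). That ratio includes cluster microRNAs read on the opposite strand, whereas no proximal gene was read that way. With the sense column for both sides it was 2.07 ± 0.0220, so its size depends on how the strands were read. Per gene the 2 sets were alike in range, with medians over detected genes of 238 CPM (36 of 38) and 337 CPM (17 of 20). Of the 20 proximal genes, 13 (65.0%) reached 10 CPM in both libraries and 3 (15.0%) reached 1000 CPM. The distal cluster's shares were 86.8% and 26.3%, so levels above those of most genes were not particular to it. The highest proximal genes, Mir127 at 5493 ± 214 CPM and Mir431 at 5206 ± 12.5 CPM, lay below Mir487b and Mir411 and above Mir369 in both libraries. With 1 group of 2 libraries the difference between the sets was not tested.

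Markers of the tissue were checked beside these values. Of 6 cardiomyocyte markers all had counts and 3 reached 10 CPM, with a sum of 63962 and 61933 CPM. They were led by Mir208b and Mir208a, both in introns of cardiac myosin heavy chain genes. Mir1a-1, Mir133a-1 and Mir133a-2 were low, with means of 3.60, 1.68 and 0.981 CPM. The 7 smooth muscle and mesenchyme markers matched, led by Mir143 and Mir21a, summed to 121199 and 122532 CPM, and the endothelial Mir126a had 67024 and 68770 CPM. Of 16 neural and endocrine markers matched, 8 reached 10 CPM, the sum was 376 and 426 CPM, and the neuronal Mir124a-1, Mir124a-2 and Mir124a-3 had 0, 0 and 0 counts in replicate 1 and 1, 0 and 0 in replicate 2. Mir138-2 and Mir138-1 were the highest of that list, at 120 ± 19.7 and 63.5 ± 7.70 CPM. The cluster's sum over its 38 genes was 42259 and 40284 CPM, and the part of neural RNA in it was not tested. Genes of the Mir1a, Mir133a, Mir124 and Mir9 families have near-identical copies, whose reads fit several places and were not counted. Low values of such genes, and sums of lists that hold them, may therefore be too low. The same may hold for other numbered copies, such as Mir199a-1 and Mir199a-2 or Mir138-1 and Mir138-2, which was not tested.

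Of the 2 erythroid markers, Mir451a had 770 and 1671 CPM and Mir144 had 156 and 140 CPM, a sum of 926 and 1811 CPM. The liver marker Mir122 had 181 and 32.4 CPM, so Mir451a and Mir122 differed between the libraries in opposite directions. White blood cell markers, led by Mir223 and Mir155, summed to 318 and 331 CPM, and the skeletal muscle markers Mir206 and Mir133b to 34.6 and 28.4 CPM. The cluster's share differed between the libraries by far less, and the part of blood or liver RNA in its values was not tested.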

How the data were processed

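The authors deposited raw counts of reads per microRNA gene, 1 table per library without pooling, quantified on mm10 with annotation M4, per the labels and the notes beside each table. The software that aligned and counted the reads is not given in the sources at hand. The 3 count columns have no names and were read as counts without regard to strand, sense and antisense, from their totals. The 4 rows that name no gene were left out of library sizes; by the sense column they held 51.5% and 50.2% of 9235580 and 10601121 reads.

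Positions came from GENCODE M21 by identifier without version, matched by 1894 of 1973 genes; 13 of 38 members have another version there, so their boundaries may differ from those counted. CPM used the sum of sense gene counts, ratios a pseudocount of 1 CPM and at least 10 counts in total. Scaling alternatives used TMM (edgeR 4.0.16) and median-of-ratios factors (DESeq2 1.42.0) in R 4.3.3; other steps used Python 3.11.15 with pandas 2.3.3 and scipy 1.17.1. Counting intervals are exact binomial (Clopper-Pearson, 95%), and limits for a count of 0 use 3 counts. The fold step was tested on simulated data, with the median log2 ratio subtracted there. The scaling step was run on the same simulated data, but its factors were not checked.

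Members, lists and the rule for named genes were chosen with earlier results of these data known. All members could be named, with full values for the 12 highest, the 4 read on the opposite strand, those with the largest differences between libraries, the lowest and those at the ends, and the 2 highest proximal genes and markers of each list. Ratios between chosen members, and the words searched in hairpins, were chosen after the values were seen. As alternatives, other strand columns, denominators, scalings, pseudocounts, filters and a set without copies were tried, and each replicate was left out.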

Additional observations from a re-analysis of the deposited data

Results flagged for a closer look

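Sense counts of Mir299b, which are outside the values above because its place was read on the opposite strand for Mir299a, numbered 7 in replicate 1 and 10 in replicate 2. Both are above the 3 counts that a count of 0 allows. They lie beside 5713 and 5940 counts on the strand of Mir299a. Antisense counts of the 34 members read in the sense column did not exceed that limit in either library.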

How the results depend on the processing

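No paired analysis was possible because there was 1 group. With the sense column for all genes, in which the 4 opposite-strand microRNAs have almost no counts, the cluster's share of sense counts was 3.32%, its 5 highest members held 72.4% of its counts, the ratio to the proximal genes was 2.07 and the leading seed group held 29.0%. The share was 3.95% over counts without regard to strand and 2.03% over all reads. Without Mir299a the 5 highest held 65.1% and the ratio was 2.49. TMM scaling put 1 member past 1.5-fold, against 0 with total counts. Leaving out each replicate gave a share of 4.03% to 4.23%, 63.0% to 63.3% for the 5 highest, a ratio of 2.56 to 2.58, 22.6% to 24.2% for the seed group and 33 members at 10 CPM. The count at 10 CPM was 29 with the sense column, and 23 with a minimum of 100 CPM. The median log2 ratio kept its sign under each scaling, pseudocount and filter tried, from −0.07 to −0.05. Depth limits the 5 members under 10 CPM, of which 3 had 3 to 13 counts a library and 2 had 0.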
